A study of Carica papaya with 12 samples.

Results

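GIGANTEA (evm.model.supercontig_26.81), GIGANTEA-like (evm.model.supercontig_26.82) and COP1-like/SPA1 (evm.model.supercontig_132.29) are 3 light signalling genes of papaya (Carica papaya). They were chosen by name from the tables of the study, and all 3 IDs were found among the 27689 gene models with counts. All 3 were among the 19339 genes that passed the filter on low counts. RNA was measured in whole flower buds of female, male and hermaphrodite plants, in buds of 1–6 mm (before meiosis) and of 7–12 mm (after meiosis), which gave 6 groups of 2 libraries. The cultivar was 'AU9' for both unisexual types and 'SunUp' for the hermaphrodites, whose sex and cultivar therefore cannot be told apart. No treatment was given, and the hour of harvest is not given in the sources used here. A bud holds many tissues, so fewer cells of a type and less RNA per cell cannot be told apart.

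GIGANTEA is a plant protein of the circadian clock. In Arabidopsis it follows a daily rhythm, and it promotes flowering in long days by helping to remove repressors of CONSTANS, the activator of the florigen gene FT. COP1 and its SPA partners form a ubiquitin ligase that in darkness marks light-promoting factors such as HY5 and CONSTANS for degradation, and in Arabidopsis COP1 also acts on GIGANTEA. These roles are known from Arabidopsis and stand here as background.

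The 3 models differ in size and placement. The GIGANTEA model lies on the minus strand of the PacBio assembly's scaffold scf7180000008441, from 204946 to 213295, with 7 exons and 750 coding bases. The GIGANTEA-like model lies on the same scaffold and strand, from 194819 to 199389, with 4 exons and 1988 coding bases. The pair are 5556 bases apart, with GIGANTEA upstream along the strand. None of the measured models with adjacent numbers lies between them. COP1-like/SPA1 was placed at 2 loci with 3 exons and 288 coding bases at each. They are scf7180000007675 from 1487133 to 1488762 and scf7180000007994 from 8414 to 10041, both on the minus strand. Whether these 288 bases hold a whole coding sequence or a fragment of one was not tested. The name COP1-like/SPA1 rests on the study's annotation. Of all gene models, 7.19% were placed on more than 1 scaffold. The authors counted a read at each place where it aligned, so COP1-like/SPA1 reads could be counted at both loci. Its count was odd in 5 of 12 libraries, so not every read there was counted at both.

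Library totals ran from 4520811 to 16564137 counts, and replicate 2 had the lower total in every group. By the study's own summary, replicate 2 did not have fewer raw reads in every group. A smaller share of its reads was assigned to gene models. Levels are CPM, counts scaled by each library's normalized total. GIGANTEA had 400 to 3445 counts per library, GIGANTEA-like 1576 to 10694 and COP1-like/SPA1 55 to 470, so COP1-like/SPA1 carries the largest counting error of the 3. Per 1000 coding bases, GIGANTEA-like averaged 228.5 CPM over the 12 libraries and stood 805th among the 19339 genes tested, and GIGANTEA averaged 174.9 CPM and stood 1115th. COP1-like/SPA1 averaged 33.3 CPM per 1000 coding bases, with both loci in the length, and stood 7441st. Both GIGANTEA models were thus among the more abundant transcripts of the buds, and COP1-like/SPA1 was of middle abundance.

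GIGANTEA was lowest in female buds and highest in male buds. In females it stood at 95.2 and 77.4 CPM at 1–6 mm and at 80.9 and 89.0 CPM at 7–12 mm (replicates 1 and 2 in this order here and below). In males it stood at 164 and 148 CPM at 1–6 mm and at 268 and 156 CPM at 7–12 mm. In hermaphrodites it stood at 118 and 89.8 CPM at 1–6 mm and at 138 and 150 CPM at 7–12 mm. Every male library lay above every female library, and 1 hermaphrodite library, replicate 2 of 1–6 mm, fell within the female range. That library had the smallest count total and the largest share of unaligned reads of the series. By group mean, male 7–12 mm buds came first at 212 ± 79.3 CPM (SD, n = 2), then male 1–6 mm at 156 ± 11.7, hermaphrodite 7–12 mm at 144 ± 8.84, hermaphrodite 1–6 mm at 104 ± 20.1, female 1–6 mm at 86.3 ± 12.6 and female 7–12 mm at 84.9 ± 5.74. Of the neighbours in this order, only the 2 hermaphrodite groups had libraries that did not overlap. The high mean of male 7–12 mm buds rests on replicate 1.

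GIGANTEA-like followed the same order of the sexes. In females it stood at 312 and 277 CPM at 1–6 mm and at 301 and 287 CPM at 7–12 mm. In males it stood at 502 and 469 CPM at 1–6 mm and at 833 and 637 CPM at 7–12 mm. In hermaphrodites it stood at 432 and 354 CPM at 1–6 mm and at 499 and 548 CPM at 7–12 mm. All female libraries lay below all male and hermaphrodite libraries. By group mean, male 7–12 mm buds had 735 ± 139 CPM (SD, n = 2), hermaphrodite 7–12 mm 524 ± 34.7, male 1–6 mm 486 ± 23.2, hermaphrodite 1–6 mm 393 ± 54.9, and female 1–6 and 7–12 mm 294 ± 24.2 and 294 ± 10.4. Libraries of the 2 female groups overlapped, as did those of hermaphrodite 7–12 mm and male 1–6 mm buds, and the other neighbours in this order did not overlap.

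COP1-like/SPA1 ran the other way. In females it stood at 29.4 and 35.1 CPM at 1–6 mm and at 32.2 and 24.5 CPM at 7–12 mm. In males it stood at 14.2 and 14.8 CPM at 1–6 mm and at 11.3 and 14.8 CPM at 7–12 mm. In hermaphrodites it stood at 14.1 and 12.4 CPM at 1–6 mm and at 14.1 and 13.3 CPM at 7–12 mm. The 4 female libraries lay above the other 8, with no overlap. The 4 male and hermaphrodite groups had means of 13.1 to 14.5 CPM, against 32.3 ± 4.06 and 28.3 ± 5.41 CPM (SD, n = 2) in female 1–6 and 7–12 mm buds.

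**Figure D1:**
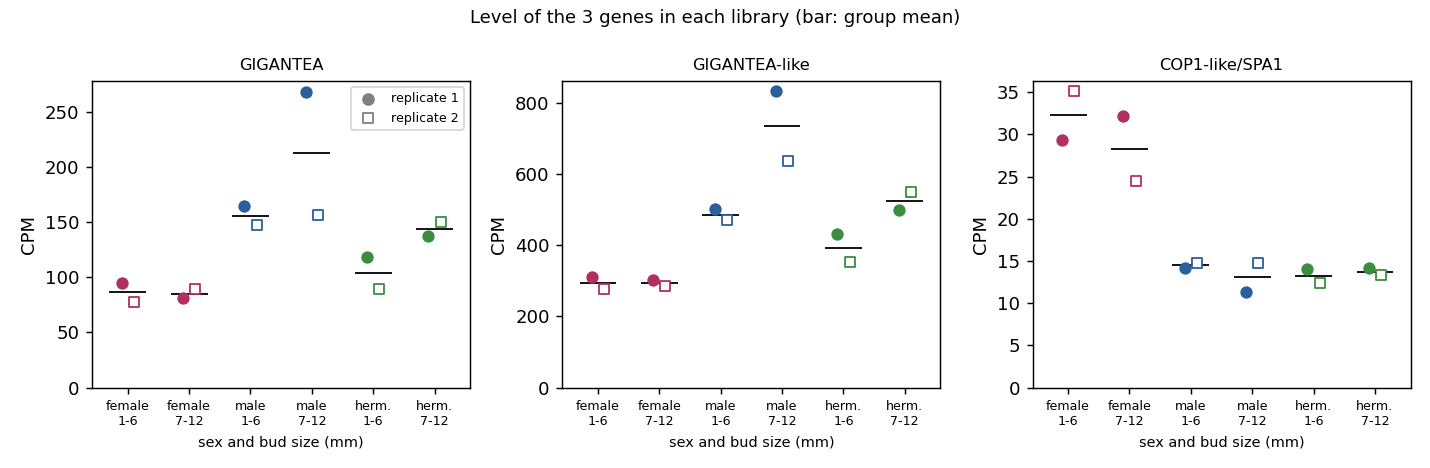
Level of GIGANTEA, GIGANTEA-like and COP1-like/SPA1 in CPM (vertical axes, each from 0) in the 2 libraries of each sex and bud size, with filled circles for replicate 1, open squares for replicate 2 and a bar at the group mean. Female buds were lowest for both GIGANTEA models and highest for COP1-like/SPA1, and male 7–12 mm replicate 1 had the highest level of both GIGANTEA models.

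Differences between groups were tested with edgeR's quasi-likelihood test over all genes. A gene was called where the Benjamini-Hochberg adjusted p was under 0.05 and the difference was over 2-fold. The study chose its tables by sex comparisons on these same libraries, so the sex differences of the 3 genes are a description and not independent evidence. The comparisons of males and of hermaphrodites with females share the female libraries. Counts out of 3 take the 2 GIGANTEA models as separate genes, and whether they belong to the same transcript was not tested.

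In male against female buds of 7–12 mm all 3 genes were called, where 16.5% of all genes tested were. GIGANTEA was 2.50-fold higher in males (log2 fold change 1.32, SE 0.24, edgeR adjusted p = 0.0021), and its log2 difference was 1.73 in replicate 1 and 0.81 in replicate 2. Without male 7–12 mm replicate 1 it was 0.88, with an edgeR adjusted p of 0.00783, and no longer over 2-fold. GIGANTEA-like was also 2.50-fold higher (log2 fold change 1.32, SE 0.15, edgeR adjusted p = 0.000122), by 1.47 and 1.15 in the replicates. COP1-like/SPA1 was 2.18-fold lower in males (log2 fold change -1.13, SE 0.19, edgeR adjusted p = 0.0013), by -1.51 and -0.72 in the replicates. It came to -0.94 without male 7–12 mm replicate 1 and -0.92 without female 7–12 mm replicate 1, which are also under the fold limit.

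In male against female buds of 1–6 mm 1 of the 3 genes was called, where 12.8% of all genes were. It was COP1-like/SPA1, 2.23-fold lower in males (log2 fold change -1.15, SE 0.19, edgeR adjusted p = 0.00131), with -1.05 and -1.24 in the replicates. GIGANTEA was 1.81-fold higher (log2 0.85, SE 0.24, edgeR adjusted p = 0.0243) and GIGANTEA-like 1.65-fold higher (log2 0.72, SE 0.15, edgeR adjusted p = 0.00533), which passed the adjusted p and not the fold limit. Leaving out any 1 of the 4 AU9 libraries of this size moved the adjusted p of GIGANTEA past 0.05, to 0.0588 without female replicate 1, 0.152 without female replicate 2, 0.111 without male replicate 1 and 0.0571 without male replicate 2. That of GIGANTEA-like was 0.0517 without female replicate 2.

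In hermaphrodite against female buds COP1-like/SPA1 was the 1 called gene of the 3 at each size, where 11.7% of all genes were called at 1–6 mm and 15.3% at 7–12 mm. It was 2.43-fold lower at 1–6 mm (log2 fold change -1.28, SE 0.19, edgeR adjusted p = 0.000845). At 7–12 mm it was 2.06-fold lower (log2 fold change -1.05, SE 0.19, edgeR adjusted p = 0.00215), and without female 7–12 mm replicate 1 the value was -0.83 and under the fold limit. At 7–12 mm GIGANTEA was 1.69-fold higher in hermaphrodites (log2 0.76, SE 0.24, edgeR adjusted p = 0.0347) and GIGANTEA-like 1.78-fold higher (log2 0.83, SE 0.15, edgeR adjusted p = 0.00217), short of the fold limit. Leaving out any 1 of the 4 libraries compared moved the adjusted p of GIGANTEA to between 0.0845 (without hermaphrodite replicate 1) and 0.158 (without female replicate 1). At 1–6 mm the log2 differences were 0.27 for GIGANTEA (edgeR adjusted p = 0.465) and 0.42 for GIGANTEA-like (edgeR adjusted p = 0.069, or 0.0178 with the replicate number as a block).

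Between male and hermaphrodite buds none of the 3 genes was called by edgeR, DESeq2 or limma-voom at either size, where 4.59% of all genes were called at 1–6 mm and 8.58% at 7–12 mm by edgeR. At an unadjusted p under 0.05, 1 of the 3 passed at 1–6 mm, where 23.4% of all genes did, and 2 at 7–12 mm, where 29.9% did. GIGANTEA-like was 1.40-fold higher in male 7–12 mm buds (log2 0.49, SE 0.15, edgeR adjusted p = 0.0459), by 0.74 in replicate 1 and 0.22 in replicate 2. Without male 7–12 mm replicate 1 the log2 difference was 0.28, with an edgeR adjusted p of 0.269. GIGANTEA differed by 0.58 at 1–6 mm and 0.56 at 7–12 mm on the log2 scale, with edgeR adjusted p-values of 0.171 and 0.135. The difference at 7–12 mm was 0.96 in replicate 1 and 0.06 in replicate 2, and it came to 0.12 without male 7–12 mm replicate 1 and 0.87 without its replicate 2. COP1-like/SPA1 differed by 0.13 and -0.08, with SEs of 0.19 at each size.

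Size comparisons within a sex did not choose the genes. The study listed both GIGANTEA models for sex differences at 7–12 mm and COP1-like/SPA1 for those at both sizes, however, so libraries used here took part in the choice and the size differences and interactions are not independent of it. In females the log2 differences of 7–12 against 1–6 mm buds were -0.03 for GIGANTEA (SE 0.23), -0.00 for GIGANTEA-like (SE 0.15) and -0.18 for COP1-like/SPA1 (SE 0.18). In males GIGANTEA-like was 1.51-fold higher in the larger buds (log2 0.60, SE 0.15, edgeR adjusted p = 0.0305), with 0.73 and 0.44 in the replicates and no overlap of the 2 groups. That adjusted p was 0.109 without male 1–6 mm replicate 1, 0.159 without its replicate 2, 0.155 without male 7–12 mm replicate 1 and 0.1 with the male libraries fitted alone. GIGANTEA in males differed by 0.45 (SE 0.23, edgeR adjusted p = 0.298), with 0.71 in replicate 1 and 0.08 in replicate 2.

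In hermaphrodites the log2 differences between sizes were 0.46 for GIGANTEA (SE 0.23, edgeR adjusted p = 0.374) and 0.41 for GIGANTEA-like (SE 0.15, edgeR adjusted p = 0.167, or 0.0394 with the replicate number as a block). Those of COP1-like/SPA1 were -0.16 in males and 0.05 in hermaphrodites, each with an SE of 0.19. None of the 3 genes was called between sizes by edgeR, DESeq2 or limma-voom, where edgeR called 1.94% of all genes in females, 5.69% in males and 3.05% in hermaphrodites. At an unadjusted p under 0.05 the count was 0 of 3 in females, 1 in males and 1 in hermaphrodites, where 20.2%, 23.5% and 17.3% of all genes passed.

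Whether a sex difference changed with bud size was tested as an interaction. None of the 3 genes was called by edgeR, DESeq2 or limma-voom, where edgeR called 5.38% of all genes for males and females, 2.39% for hermaphrodites and females and 0.512% for males and hermaphrodites. At an unadjusted p under 0.05 the counts were 1, 0 and 0 of 3, where 21.4%, 16.5% and 10.2% of all genes passed. The 1 gene was GIGANTEA-like, whose male to female difference was 0.60 larger on the log2 scale at 7–12 than at 1–6 mm (SE 0.21, edgeR adjusted p = 0.124, or 0.0327 with the replicate number as a block). It was 0.78 in replicate 1 and 0.39 in replicate 2. For GIGANTEA the same term was 0.47 (SE 0.33), with 0.94 and -0.12 in the replicates, and for COP1-like/SPA1 it was 0.03 (SE 0.26).

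**Figure D2:**
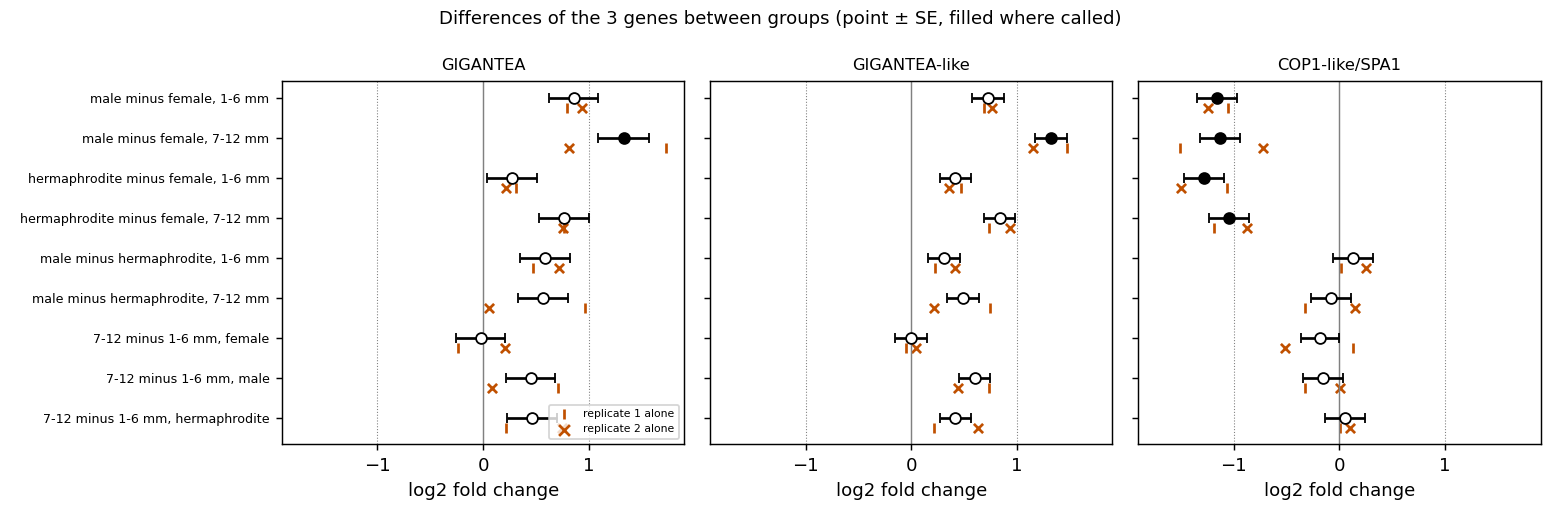
Log2 fold change (horizontal axes) of each of the 3 genes in the 9 comparisons of sexes and bud sizes, as points with SE, filled where called, with the values from replicate 1 alone and replicate 2 alone beneath each and dotted lines at the fold limit. The COP1-like/SPA1 points lie at -1.28 to -1.05 in the 4 comparisons with females and near 0 in the others.

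The pair kept near one ratio while their levels moved. Per coding length, GIGANTEA-like stood at 1.32 ± 0.127 times the level of GIGANTEA (SD, n = 12), from 1.15 in male 1–6 mm replicate 1 to 1.54 in male 7–12 mm replicate 2. Over the same libraries the CPM of GIGANTEA spanned 3.47-fold and that of GIGANTEA-like 3.004-fold. The log2 ratio averaged 0.38 ± 0.102 in females, 0.33 ± 0.197 in males and 0.49 ± 0.0562 in hermaphrodites (SD, n = 4). Differences in the log2 ratio were -0.05 between males and females (two-sided exact permutation p = 0.714), 0.11 between hermaphrodites and females (exact p = 0.2) and -0.16 between males and hermaphrodites (exact p = 0.143). Between bud sizes the log2 ratio differed by 0.05 (exact p = 0.541). Between replicate numbers it differed by 0.08 (exact p = 0.406 from sign changes of the paired differences of the 6 groups). After Benjamini-Hochberg adjustment over these 5 comparisons the exact p-values were 0.5 to 0.714, and the smallest unadjusted p that 4 against 4 libraries allow is 0.0286. The sex comparisons pooled both bud sizes and ignored the replicate number, which pairs the libraries. With labels permuted within replicate numbers the exact p-values were 0.667, 0.278 and 0.167 for the 3 sex comparisons, where the smallest possible is 0.0556, and 0.53 for bud size.

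Across the 12 libraries the log2 CPM of the pair had a Pearson r of 0.966, or 0.968 with the replicate means removed. COP1-like/SPA1 had an r of -0.759 with GIGANTEA and -0.809 with GIGANTEA-like. These values are descriptions, since the libraries share groups, sequencing runs and depth. Whether the 2 GIGANTEA models are 2 genes or pieces of 1 transcript was not tested, and their coding lengths together come to 2738 bases.

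**Figure D3:**
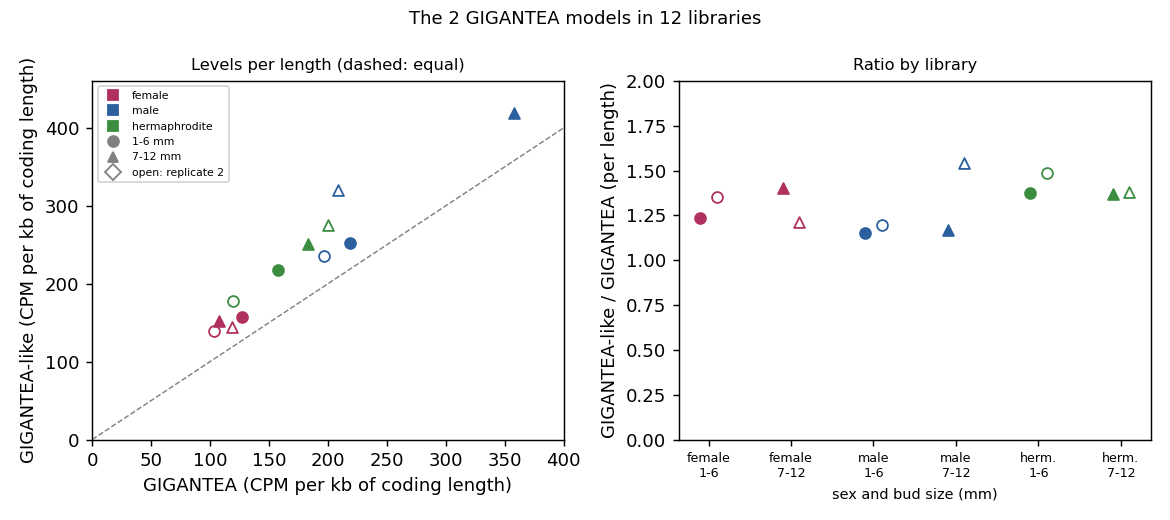
Left, level of GIGANTEA-like against GIGANTEA in CPM per kb of coding length in 12 libraries, with a dashed line of equal levels; right, their ratio in each library by sex and bud size. Colours mark sex, circles 1–6 mm, triangles 7–12 mm and open symbols replicate 2. All 12 points lie above the line, with ratios from 1.15 to 1.54.

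The gene models around the pair were measured for comparison. The next model by number, evm.model.supercontig_26.83, lies 877 bases downstream of GIGANTEA-like on the same strand. Its log2 difference of males and females was -0.16 at 1–6 mm and -0.12 at 7–12 mm (SE 0.14 at each, edgeR adjusted p = 0.475 and 0.569). Beyond it, evm.model.supercontig_26.84 differed by -0.02 and 0.04. Upstream, evm.model.supercontig_26.80 lies on the other strand and differed by 0.16 at 1–6 mm and 0.48 at 7–12 mm (edgeR adjusted p = 0.0517 at 7–12 mm). None of these 3 models was called in either comparison.

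Of the models next to COP1-like/SPA1, evm.model.supercontig_132.27, which is also placed on both scaffolds, was lower in males than in females by log2 differences of -1.84 at 1–6 mm and -1.40 at 7–12 mm (edgeR adjusted p = 0.000103 and 0.00043). In hermaphrodites it differed from females by 0.16 and 0.46 (edgeR adjusted p = 0.634 and 0.1). On the first scaffold evm.model.supercontig_132.28 lies between it and COP1-like/SPA1 and is also placed on both scaffolds. It differed between males and females by 0.02 at 1–6 mm, with the libraries overlapping (edgeR adjusted p = 0.949). At 7–12 mm it differed by 0.55, with the male libraries above the female ones (edgeR adjusted p = 0.00949). Beyond COP1-like/SPA1, evm.model.supercontig_132.30 and evm.model.supercontig_132.31 are placed on the first scaffold alone. They differed between males and females by -0.16 and -0.31 at 1–6 mm (edgeR adjusted p = 0.408 and 0.141). At 7–12 mm they differed by 0.48 and 0.20 (edgeR adjusted p = 0.0123 and 0.334). The sources used here give these neighbours no name.

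**Figure D4:**
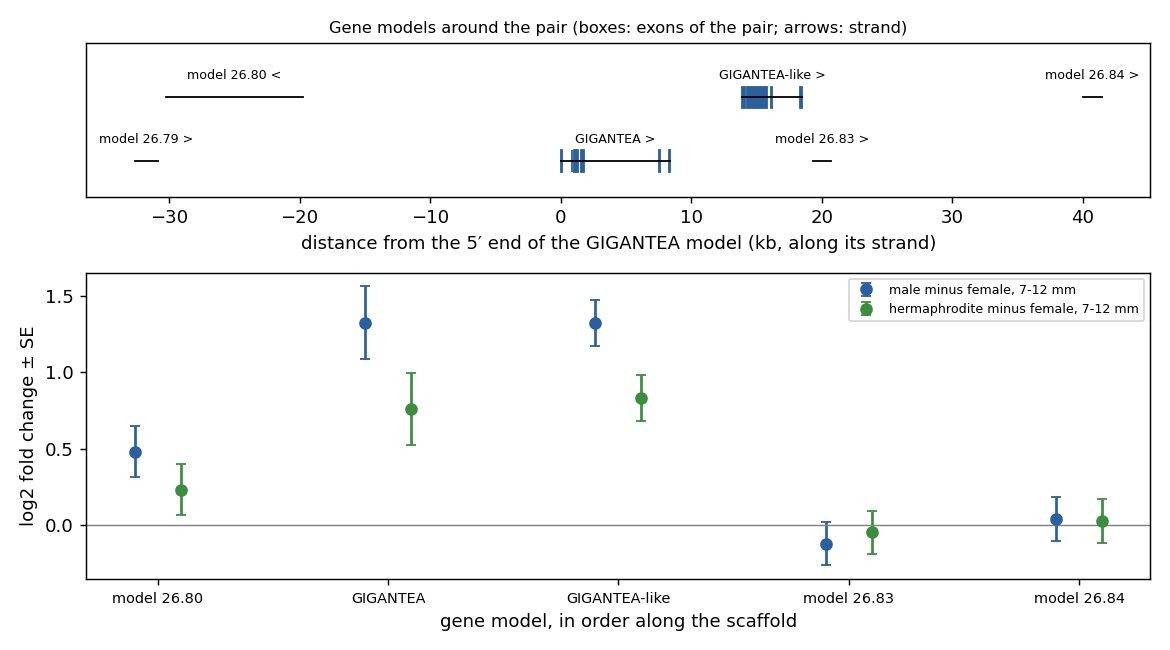
Top, gene models around the pair by distance from the 5′ end of GIGANTEA in kb, with exons of the pair as boxes and arrows for strand; bottom, log2 fold change with SE of each model with enough counts, for males and hermaphrodites against females at 7–12 mm. GIGANTEA and GIGANTEA-like both stand at 1.32 in males, and evm.model.supercontig_26.83, downstream of GIGANTEA-like, stands at -0.12.

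A further 4 light signalling genes of the study's tables were followed for comparison. HY5 (evm.model.supercontig_115.9) is the bZIP factor that promotes light responses and that COP1 removes in Arabidopsis. PAT1 (evm.model.supercontig_12.194) is a GRAS protein of phytochrome A signalling. HAT4-like (evm.model.supercontig_89.64) resembles the homeodomain-leucine zipper factor that Arabidopsis induces in shade, and DELLA GAIP-B-like (evm.model.supercontig_2.240) resembles the DELLA repressors of gibberellin responses.

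HY5 stood at 66.0 and 71.1 CPM in female 1–6 mm and 62.3 and 65.3 CPM in female 7–12 mm buds. In males it stood at 33.7 and 37.0 CPM at 1–6 mm and 32.2 and 34.2 CPM at 7–12 mm. In hermaphrodites it stood at 52.4 and 62.2 CPM at 1–6 mm and 32.2 and 31.1 CPM at 7–12 mm. Hermaphrodite buds thus lay near the females when small and beside the males when large. In hermaphrodites the level was 1.80-fold lower at 7–12 mm (log2 -0.85, SE 0.11, edgeR adjusted p = 0.00296). The hermaphrodite to female difference shifted with size by -0.75 (SE 0.15, edgeR adjusted p = 0.0358, or 0.00817 with the replicate number as a block). With 1 library left out at a time the adjusted p of this shift was 0.0457 to 0.157, and it was under 0.05 in 1 of 12 such fits. Against females HY5 was called lower in hermaphrodites of 7–12 mm (log2 -1.01, edgeR adjusted p = 0.000115), and without replicate 2 of either group it was -0.98 or -0.99 and under the fold limit. In males the differences of -0.96 and -0.94 had edgeR adjusted p-values of 0.000153 and 0.000146 and fell just short of the fold limit. COP1-like/SPA1 and HY5 were thus both highest in female buds. In hermaphrodite against female buds of 1–6 mm the log2 difference of HY5 was -0.27, and that of COP1-like/SPA1 was -1.28.

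PAT1 had 148 to 220 CPM in females, 70.6 to 102 CPM in males and 146 to 158 CPM in hermaphrodites. It was called lower in males than in females at 1–6 mm (log2 -1.06) and 7–12 mm (log2 -1.09), and lower than in hermaphrodites at 7–12 mm (log2 -1.07). The call at 1–6 mm was lost through the fold limit without female 1–6 mm replicate 1 (-0.92) or male 1–6 mm replicate 2 (-0.99). HAT4-like had 11.5 to 21.3 CPM in females, 39.0 to 43.3 CPM in males and 23.1 to 29.4 CPM in hermaphrodites. It was called higher in males than in females at 7–12 mm (log2 1.68, edgeR adjusted p = 1.97e-05), with 0.98 at 1–6 mm, and its shift between the sizes was 0.70 (edgeR adjusted p = 0.0561, or 0.0261 with the replicate number as a block). DELLA GAIP-B-like was not called in any comparison. Its level was 1.58-fold higher in hermaphrodites than in females at 1–6 mm (log2 0.66, SE 0.14, edgeR adjusted p = 0.00783), with 0.66 and 0.65 in the replicates, and its log2 differences of males and females were 0.19 and -0.10.

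Of these 4 genes, edgeR called 0 higher and 1 lower in males than in females at 1–6 mm, where 12.8% of all genes were called, and 1 higher and 1 lower at 7–12 mm, where 16.5% were. In hermaphrodites against females it called 0 of 4 at 1–6 mm and 1 lower at 7–12 mm, where 11.7% and 15.3% of all genes were called. In males against hermaphrodites it called 0 of 4 at 1–6 mm and 1 lower at 7–12 mm, where 4.59% and 8.58% were. In both comparisons at 1–6 mm with 0 calls DESeq2 and limma-voom also called 0, and all 4 genes passed an unadjusted p under 0.05, as 35.8% of all genes did for hermaphrodites and females and 23.4% for males and hermaphrodites.

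The 4 genes did not move one way, so their medians stand between unlike members. The median log2 difference was -0.38 and -0.52 in males against females at 1–6 and 7–12 mm, against 0.05 and 0.02 over all genes. It was 0.12 and 0.03 in hermaphrodites against females, against 0.03 and 0.01 over all genes. The study listed HY5, PAT1 and HAT4-like for sex differences in these libraries, so their sex differences are descriptions. It listed DELLA GAIP-B-like for a comparison of normal and teratological male flowers, which is not analysed here.

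**Figure D5:**
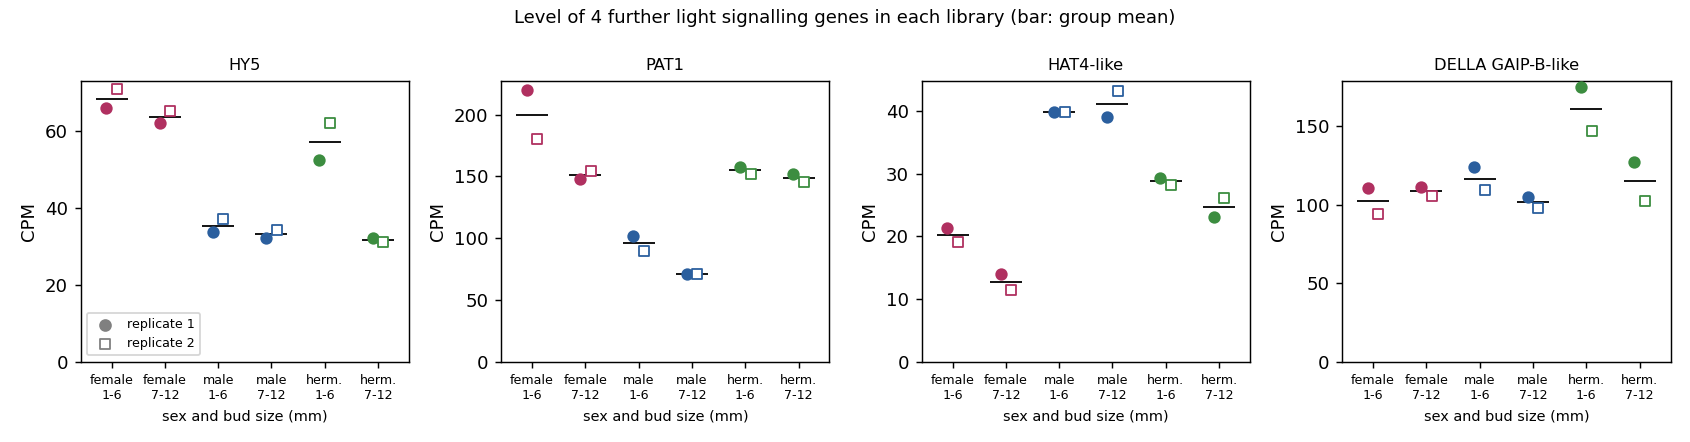
Level of HY5, PAT1, HAT4-like and DELLA GAIP-B-like in CPM (vertical axes, each from 0) in the 2 libraries of each sex and bud size, with filled circles for replicate 1, open squares for replicate 2 and a bar at the group mean. HY5 in hermaphrodites goes from 52.4 and 62.2 CPM at 1–6 mm to 32.2 and 31.1 CPM at 7–12 mm.

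Among the 80 other genes of the study's tables, those whose log2 CPM was most like that of GIGANTEA over the 12 libraries were a chloroplast pentatricopeptide repeat gene (evm.model.supercontig_6.12, r = 0.934), the receptor kinase gene RKS1 (evm.model.supercontig_27.166, r = 0.894) and the metal-nicotianamine transporter gene YSL3 (evm.TU.contig_29408.2, r = 0.877). Those most like GIGANTEA-like were the petal and stamen identity gene AP3 isoform 1 (evm.model.supercontig_6.199, r = 0.947), the tapetum factor gene AMS isoform 2 (evm.model.supercontig_20.94, r = 0.935) and a calmodulin-binding receptor-like cytoplasmic kinase gene (evm.model.supercontig_11.32, r = 0.933). Those most like COP1-like/SPA1 were the brassinosteroid oxidase gene CYP85A2 (evm.model.supercontig_1.155, r = 0.919), the receptor kinase gene RPK2 (evm.model.supercontig_14.179, r = 0.917) and AIL1 (evm.model.supercontig_25.116, r = 0.874). For CYP85A2 and RPK2 the Spearman correlations with COP1-like/SPA1 were lower, at 0.701 and 0.692. Many of the 80 genes were listed for sex differences in these libraries, so the likeness is a description. Among 19336 tested genes the named ones ranked 17th, 91st and 161st for GIGANTEA and 53rd, 100th and 115th for GIGANTEA-like. For COP1-like/SPA1 they ranked 221st, 235th and 579th. The highest r over all tested genes was 0.9731, 0.9865 and 0.9757 in the same order, each with an unnamed gene.

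The tissue content of the buds moved with sex as well. The summed level of 5 stamen genes (TDF1, DYT, AMS isoforms 1 and 2, and SPL/NZZ) was 0.217 to 2.70 CPM in female libraries and 578.5 to 1700 CPM in male and hermaphrodite libraries, so the female libraries held almost no stamen transcripts. Within the males the sum was 1090 to 1351 CPM at 1–6 mm and 578.5 to 668.5 CPM at 7–12 mm. Within the hermaphrodites the sum was 786.9 to 993.5 CPM at 1–6 mm and 1297 to 1700 CPM at 7–12 mm. AMS isoform 2 stood at 14.5 and 6.48 CPM in male 1–6 mm and 91.5 and 81.2 CPM in male 7–12 mm buds. The other genes of the sum fell with size in males. Their group means went from 445 to 288 CPM for TDF1 and from 750 to 244 CPM for AMS isoform 1. They went from 4.68 to 2.64 CPM for DYT and from 11.2 to 2.80 CPM for SPL/NZZ. The summed level of the petal and stamen genes PI and AP3 was 323 to 376 CPM in females, 496 to 541 and 1071 to 1179 CPM in males of 1–6 and 7–12 mm, and 526 to 591 and 690 to 767 CPM in hermaphrodites. The part of tissue content in the sex differences of the 3 genes was not tested.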

How the data were processed

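RNA of papaya flower buds was sequenced in 12 libraries, with replicate 1 of each group on a HiSeq2000 (single-end) and replicate 2 on a HiSeq2500 (paired-end). The authors deposited whole-number counts of reads per gene model, not normalized, made with FastQC 0.11.5, Trimmomatic 0.36, HISAT2 2.0.5, SAMtools 1.3.1 and featureCounts 1.5.2. Models are coding sequences placed on the PacBio assembly, and a read with several alignments counted once at every one.

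Counts were fitted in R 4.3.3 with edgeR 4.0.16 (filterByExpr, minimum count 10; TMM; 1 coefficient per group; robust quasi-likelihood F tests) over 19339 genes. SEs are those implied by the F test. Log2 CPM used a prior count of 2. Pair ratios were compared by exact permutation between sexes and sizes, and by exact sign changes over the groups between replicate numbers. Scripts were tested on simulated data. Alternatives used DESeq2 1.42.0, limma 3.58.1 and the settings in the closing section.

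Deviations of libraries with the same replicate number correlated at 0.734 to 0.839 (median 0.782, 15 pairs of groups). The number marks the sequencing platform and so pairs the libraries. The study calls the 2 libraries of a group biological replicates, and the sources do not say whether they came from separate plants. The p-values of the fit rest on the spread between libraries of the same group, shared over the 6 groups. Without a block for the replicate number, that spread includes the difference between platforms.

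The members and gene lists were chosen with earlier results of these data known. Named genes were the members, 4 light signalling genes, their neighbouring models, and the 3 genes of the study's tables most correlated with each member. Gene names are those of the study, and the RefSeq table at hand matched 0 of the IDs. Sequences were not used here.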

Additional observations from a re-analysis of the deposited data

Results flagged for a closer look

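The ratio of GIGANTEA-like to GIGANTEA had 1 library apart from the other 3 in 2 of the 3 sexes. In males it was 7–12 mm replicate 2, at 1.54 against 1.15 to 1.20, whose gap took 0.865 of the range of the 4 log2 ratios. In hermaphrodites it was 1–6 mm replicate 2, at 1.49 against 1.37 to 1.38, with a gap of 0.923 of the range. Both pass Dixon's limit for 4 values, and chance alone flags about 1 in 20 groups. Each is a replicate 2 library, and the difference of the ratio between replicate numbers had an exact sign-change p of 0.406. The hermaphrodite library also had the smallest count total and the largest share of unaligned reads of the series.

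HY5 had a hermaphrodite to female difference that shifted with bud size by -0.75 on the log2 scale (edgeR adjusted p = 0.0358 for the interaction). With 1 library left out at a time the adjusted p was 0.0457 to 0.157, with 1 of 12 fits under 0.05, and with the compared libraries alone it was 0.0847. The 2 hermaphrodite libraries of 7–12 mm were below both of 1–6 mm, and the female libraries of the 2 sizes lay close together.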

How the results depend on the processing

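Of 792 values of the 3 genes under the alternatives, 760 kept their direction and call, 4 lost the call and 28 changed sign. The sign changes were in differences that were not called. Leaving out a library ended 3 calls at 7–12 mm through the fold limit: male minus female gave 0.88 to 1.64 for GIGANTEA and -1.35 to -0.92 for COP1-like/SPA1, and hermaphrodite minus female -1.23 to -0.83 for COP1-like/SPA1. With 2 libraries per group, a group left with 1 is assumed to vary like the others. The depth limits COP1-like/SPA1 most, with 55 counts at the lowest. Halving its counts, chosen after seeing the data, changed no call of the 3 genes. The same factor in every library leaves fold changes nearly as they were. Halving therefore cannot show whether the share of reads counted at both loci differs between groups.

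The replicate block changed no call of the 3 genes or of the 4 light signalling genes. It turned the COP1-like/SPA1 interaction of males and females to -0.0059 (limma-voom -0.053), and moved the genes called to 632 between sizes in females and to 847 and 443 in the hermaphrodite interactions with females and with males. Fitting the compared libraries alone gave 162, 252 and 3, and DESeq2 gave 357 for the last.

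Thinning all libraries to the smallest total turned COP1-like/SPA1 to -0.17 and 0.023 between sizes in hermaphrodites and males, to -0.014 and 0.18 between males and hermaphrodites at 1–6 and 7–12 mm, and to 0.19 in their interaction. It turned the size difference in females to 0.047 for GIGANTEA, 0.0060 for GIGANTEA-like and 0.0014 for HY5, HY5 in males to 0.042, PAT1 in hermaphrodites against females at 7–12 mm to 0.019 and the male and hermaphrodite interaction of GIGANTEA to 0.066. It left 270 genes called in the hermaphrodite and female interaction.

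Leaving out 1 library gave these ranges for differences that changed sign. Between sizes in females they were -0.17 to 0.13 for GIGANTEA, -0.086 to 0.084 for GIGANTEA-like and -0.027 to 0.21 for DELLA GAIP-B-like. Between sizes in males they were -0.38 to 0.032 for COP1-like/SPA1 and -0.049 to 0.12 for HAT4-like, and in hermaphrodites -0.034 to 0.15 for COP1-like/SPA1. Between males and hermaphrodites at 7–12 mm they were -0.31 to 0.11 for COP1-like/SPA1 and -0.002 to 0.11 for HY5. Between hermaphrodites and females at 7–12 mm they were -0.051 to 0.013 for PAT1 and -0.089 to 0.23 for DELLA GAIP-B-like. In interactions they were -0.19 to 0.24 for COP1-like/SPA1 (males and females), -0.46 to 0.30 for GIGANTEA and -0.024 to 0.34 for GIGANTEA-like (males and hermaphrodites).

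The pair's log2 ratio differed by 0.078 to 0.15 between hermaphrodites and females, with an exact permutation p of 0.0286 without female 7–12 mm replicate 1, and by -0.26 to -0.12 between males and hermaphrodites, with the same p without male 7–12 mm replicate 2. It is the smallest p that 3 against 4 libraries allow.

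With the adjusted p alone, genes called between males and females were 5062 at 1–6 mm and 6367 at 7–12 mm, between hermaphrodites and females 4814 and 5998, between males and hermaphrodites 2059 and 3633, and between sizes 1056 in females, 2116 in males and 1050 in hermaphrodites. Leaving out 1 library gave 559 to 941 genes for males and hermaphrodites at 1–6 mm, 104 to 795, 696 to 1143 and 172 to 598 for bud size in females, males and hermaphrodites, and 496 to 1405, 28 to 810 and 0 to 270 for the interactions in the order given in the report. Without the male and hermaphrodite 1–6 mm libraries of replicate 2, which have the most unaligned reads (chosen after seeing the data), these counts were 414, then 621 and 283 for size in males and hermaphrodites, then 508, 65 and 5. COP1-like/SPA1 between sizes in hermaphrodites then turned to -0.034 and the male and hermaphrodite interaction of GIGANTEA to 0.090. The causes were not tested.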
